A study of Mus musculus with 12 samples.

Results

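A set of 8 interferon-induced GTPase genes was followed through RNA sequencing of CD31+ lung cells, namely 5 guanylate-binding proteins (Gbp2, Gbp3, Gbp4, Gbp5 and Gbp6) and 3 immunity-related GTPases (Irgm1, Igtp, also called Irgm3, and Iigp1, also called Irga6). They were chosen by name and are not all members of these 2 families. A list of 20 other interferon-induced GTPase genes is described further on. All 8 are among the 9338 genes that the 4 deposited tables list. The cells came from male mice on a C57Bl/6J background carrying Tet2 alleles flanked by loxP sites (TET2fl/fl), with 3 mice in each of 4 groups. TET2 KO mice also carried Cdh5-CreERT2, a tamoxifen-dependent recombinase driven by the promoter of an endothelial cadherin, whereas WT mice had the floxed alleles without the recombinase. Both genotypes received tamoxifen by intraperitoneal injection (40 mg/kg on 3 successive days) when they were 6 to 8 weeks old. From 1 week later, and for 20 weeks, they ate either standard chow (13% of energy from fat) or a high fat diet (HFD, 60% of energy from fat). The groups were therefore WT chow, TET2 KO chow, WT HFD and TET2 KO HFD. Cells were taken from digested lung with anti-CD31 microbeads, and each mouse gave 1 library with 36.7 to 56.8 M reads counted on genes (median 39.6 M). The Cdh5 promoter directs recombination to the cells that use it, and Tet2 was not measured by cell type here. The label names lung endothelial cells, and endothelial markers were present (262 to 1358 FPKM summed over 11 markers in the WT libraries), but so were macrophage markers (2013 to 5553 FPKM over 5 markers in the TET2 KO libraries, mostly Lyz2) and the airway gene Scgb1a1, so the cells were a mixture.

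Guanylate-binding proteins (GBPs) and immunity-related GTPases (IRGs) are large GTPases that cells make in quantity when interferon, above all interferon gamma (IFNγ), binds its receptor. Signals from interferon receptors reach promoters at gamma-activated sites (GAS) and at interferon-stimulated response elements (ISRE), the latter bound by factors that include IRF proteins. GBPs and IRGs gather on the vacuoles that hold bacteria and parasites and on bacteria free in the cytosol, and GBPs also help to open the way to inflammasomes. Irgm1 and Igtp belong to the GMS group of IRGs, which sit on the cell's own membranes and hold effector IRGs such as Iigp1 in an inactive state. Endothelial cells, macrophages and lymphocytes can all express these genes after exposure to interferon.

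The Gbp genes lie in 2 clusters. On GRCm38 (mm10), as the tables give them, Gbp5 (chr3:142493978-142522344), Gbp3 (chr3:142560026-142573209) and Gbp2 (chr3:142620602-142638008) follow each other on the plus strand of chromosome 3. Gbp4 (chr5:105115767-105139586) and Gbp6 (chr5:105270702-105293698) lie on the minus strand of chromosome 5. Irgm1 (chr11:48861968-48871683, minus strand) and Igtp (chr11:58199556-58207591, plus strand) lie apart on chromosome 11, and Iigp1 lies on another chromosome. The spans and exon lengths of 7 of the 8 genes were those of GENCODE M21, while Iigp1 was deposited with 3121 bases of exon against 5823 in that release, which scales its FPKM by the same factor in every library.

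The stretches of promoter nearest the start that hold interferon-response letters are shown for the 5 genes with an entry in the RefSeq promoter table. The table covers 250 bases before to 50 bases after each start site (build GRCm38.p6), and Gbp4, Gbp6 and Iigp1 have no entry in it. Capitals mark an ISRE-like match (GAAANNGAAA, or TTTCNNTTTC on the other strand) or a GAS-like match (TTCNNNGAA, the same on both strands), and neighbouring matches may overlap. Sequences read 5′ to 3′ on the strand of the gene, and only 30 bases are given where the stretch before the RefSeq start overlaps an exon of another transcript of the same gene.
Gbp2 (chr3:142620594-142620623, plus strand): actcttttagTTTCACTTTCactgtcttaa
Gbp3 (chr3:142559992-142560021, plus strand): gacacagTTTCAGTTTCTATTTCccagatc
Gbp5 (chr3:142496871-142496900, plus strand): ctggccgttatTTCTCAGAAccaagcacag
Irgm1 (chr11:48871428-48871457, minus strand): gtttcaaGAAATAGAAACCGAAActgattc
Igtp (chr11:58199456-58199555, plus strand): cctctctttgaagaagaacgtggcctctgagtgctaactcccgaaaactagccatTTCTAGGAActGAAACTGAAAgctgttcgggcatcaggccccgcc

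In the 300-base windows, an ISRE-like match was found for 5 of 5 genes and a GAS-like match for 2 of 5, Gbp5 and Igtp. Of all 32851 windows in the table, 3.44% held an ISRE-like match, 8.3% a GAS-like match and 0.454% both. Gbp3 and Irgm1 each held a pair of overlapping ISRE-like matches, beginning 45 and 39 bases before the start of Gbp3 and 30 and 24 bases before that of Irgm1. Gbp2 held a single one that began at base -59. In Igtp the GAS-like match began at -45 and the ISRE-like match at -34. Gbp5 carried a GAS-like match at -52, the one printed above, and further upstream an ISRE-like match at -165 and a GAS-like match at -245. Gbp3 has a 2nd start site in the table whose window held neither. Among the other interferon-induced GTPases, 11 of 20 have an entry, and 8 of those 11 held an ISRE-like and 6 a GAS-like match. These are matches of letters, and binding was not measured in these cells.

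**Figure D1:**
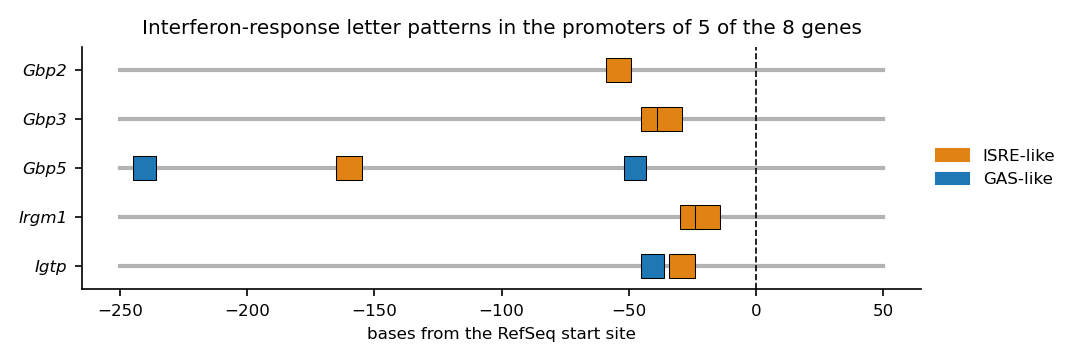
Positions of ISRE-like (orange) and GAS-like (blue) letter matches in the promoter windows of 5 genes, in bases from the RefSeq start site (dashed line). In each gene at least 1 match lies within 60 bases before the start, and Gbp5 has 2 further matches upstream.

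Each table lists only genes with an unadjusted p under 0.05 in the study's own test of that comparison, so a group has values for a gene only where one of its comparisons was listed. Gbp3, Gbp5 and Gbp6 had values in all 12 libraries, Gbp2 and Gbp4 in 9 (all but TET2 KO HFD), Iigp1 in 9 (all but WT HFD), and Irgm1 and Igtp in the 6 TET2 KO libraries. All tests were edgeR quasi-likelihood tests (two-sided) on the counts of the genes listed for a comparison. A gene was called at an unadjusted p under 0.05, which is the study's own threshold, and Benjamini-Hochberg adjusted p-values are given beside it. Because listing selects genes by the same contrast, a call for a listed gene is partly built in, and its meaning has to be read against the share of listed genes that were called.

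TET2 KO chow was the only group with values for all 8 genes, and levels were compared between genes there, in FPKM (the read count scaled by exon length and library total). Igtp was highest with 25.6 ± 1.60 FPKM (SD, n = 3), followed by Gbp2 with 18.5 ± 3.98. Next came Iigp1 (11.0 ± 4.97), Gbp3 (9.27 ± 0.247), Irgm1 (9.04 ± 0.466) and Gbp4 (8.82 ± 1.88). The place of Iigp1 in this order rests on its deposited length. With the same reads over the longer GENCODE M21 length it would come after Gbp4. Reads on exon bases outside the deposited length may be missing from its count, so its place is not certain. Gbp5 (2.07 ± 0.530) and Gbp6 (1.20 ± 0.221) were lowest. From Gbp2 down to Gbp4 each gene's libraries overlapped those of the next, while Igtp, Gbp5 and Gbp6 were separated from their neighbours in this order. A member had between 222 and 10131 reads in a library.

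**Figure D2:**
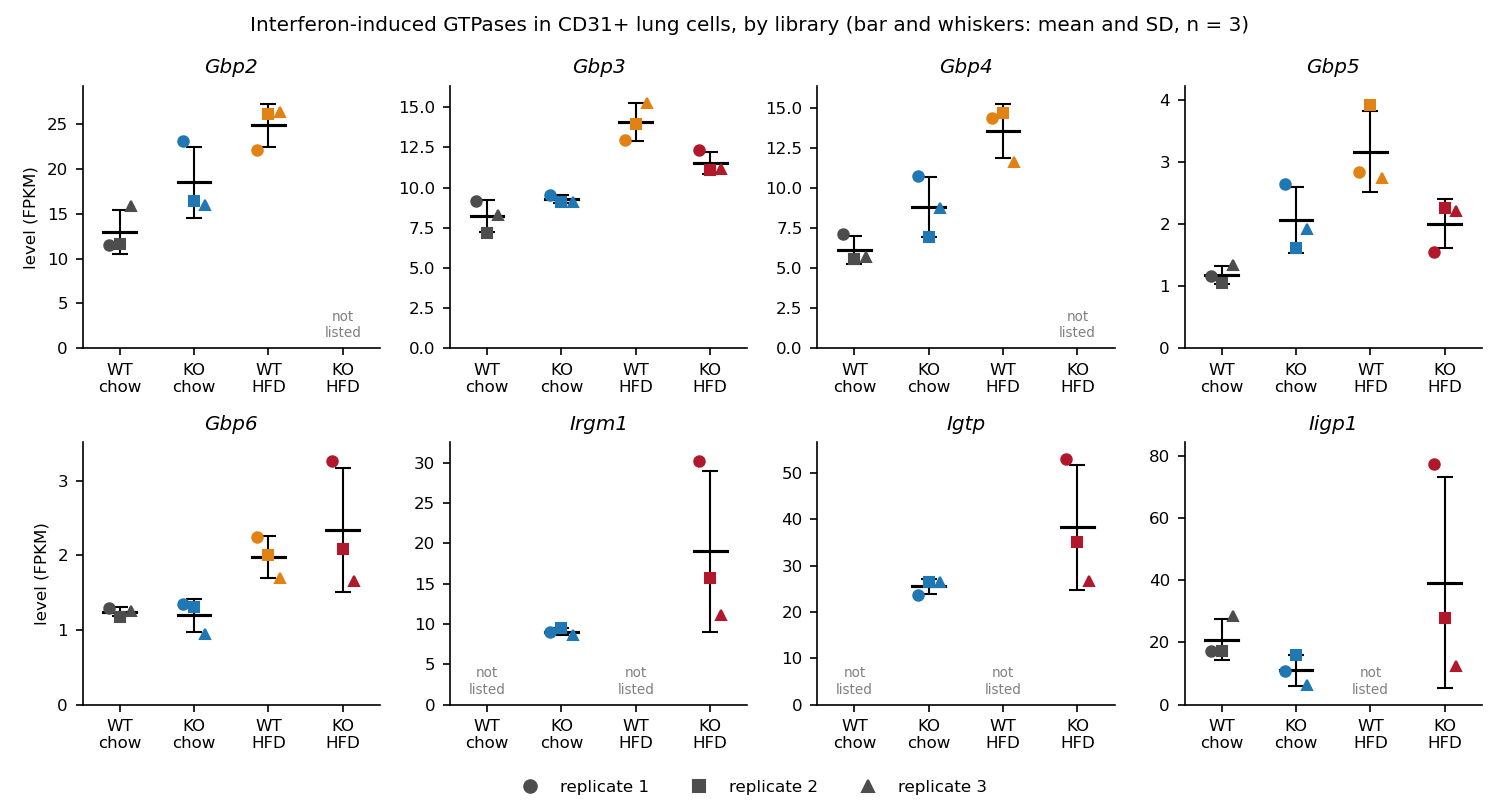
Level of each gene in FPKM (vertical axes start at 0 and differ between panels) in every library, by group; bars and whiskers are the mean and SD of 3 mice, and marker shape is the replicate number. The 5 Gbp genes sit higher in WT HFD than in WT chow with no overlap, and Irgm1, Igtp and Iigp1 are spread widely in TET2 KO HFD, where replicate 1 is highest.

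In WT mice the Gbp genes were higher on HFD than on chow. All 5 were listed in this comparison, all 5 were higher in every HFD library than in any chow library, and 4 of them (Gbp2, Gbp3, Gbp4 and Gbp5) rose with an edgeR adjusted p under 0.05. Of the 7330 genes listed, 91.6% were called, 42.4% as higher and 49.2% as lower, 86.5% did not overlap, and 18.7% passed the adjusted threshold, so that the Gbp calls without adjustment were what most listed genes showed. The adjusted calls depended on single libraries. Of the members, 4 passed the adjusted threshold without WT chow replicate 3, 1 without WT chow replicate 1, and 0 without WT chow replicate 2 or without any one of the 3 WT HFD libraries. Over all listed genes the number went from 1368 to 1594, 322 and 0 without WT chow replicates 3, 1 and 2, and to 0, 0 and 2 without WT HFD replicates 1, 2 and 3. The median log2 fold change was 0.94 over the 5 genes and -0.32 over all listed genes, though the latter had no stable sign and was 0.27 over the genes with a mean normalized count of at least 10. Of the genes the study adjusted, 30.2% were listed at all. Irgm1, Igtp and Iigp1 were not listed here.

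Gbp5, which promotes assembly of the NLRP3 inflammasome, had 1.17, 1.05 and 1.34 FPKM in the WT chow libraries and 2.85, 3.93 and 2.75 in the WT HFD libraries. The lowest HFD library lay far above the highest chow library. Its log2 fold change was 1.43 ± 0.19 (SE), a 2.69-fold higher level, with an edgeR adjusted p of 0.0357. Gbp4 had 7.11, 5.55 and 5.71 FPKM on chow and 14.3, 14.7 and 11.6 on HFD. Its lowest HFD library lay well above its highest chow library. Its log2 fold change was 1.15 ± 0.15 (edgeR adjusted p = 0.0357).

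Gbp2, a GBP that coats vacuoles and cytosolic bacteria, had 11.6, 11.6 and 15.8 FPKM on chow and 22.1, 26.2 and 26.4 on HFD. WT chow replicate 3 was nearest to the HFD libraries but still below all of them. The log2 fold change was 0.94 ± 0.16 (edgeR adjusted p = 0.0368). Gbp3 had 9.16, 7.18 and 8.32 FPKM against 12.9, 13.9 and 15.3. Its groups were tight and apart, with a log2 fold change of 0.78 ± 0.13 (edgeR adjusted p = 0.0368).

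Gbp6 had 1.30, 1.18 and 1.26 FPKM on chow and 2.25, 2.00 and 1.69 on HFD. The groups did not overlap, and the log2 fold change was 0.68 ± 0.16, called but with an edgeR adjusted p of 0.0540. With DESeq2 and with limma-trend all 5 Gbp genes passed the adjusted threshold. Of the 7330 genes listed, 4586 passed it with DESeq2 and 2122 with limma-trend. Gbp6 is the least certain of the 5 in identity. It shares 1726 exon bases on the same strand with the gene model Gm43302, and 64.5% of its 100-base sequences also occur in transcripts of other genes, 59.0% in Gm43302 itself. For the other 7 genes the shared part was 5.16% (Igtp, with Irgm2), 1.64% (Gbp4), 0.694% (Gbp3), 0.142% (Gbp5) and 0 (Gbp2, Irgm1 and Iigp1). All 5 Gbp genes kept an unadjusted p under 0.05 in each of the 6 fits that left out 1 library, unlike the adjusted calls. In those fits 4647 to 5633 of the 7330 listed genes were called as well.

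**Figure D3:**
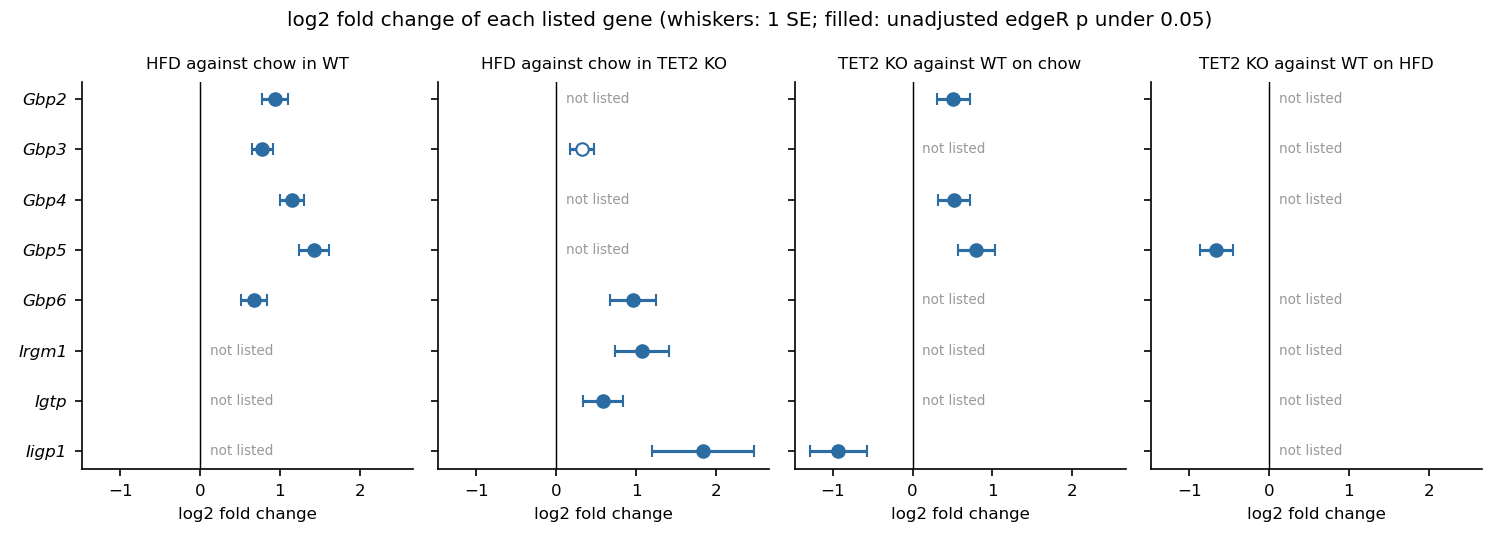
log2 fold change (horizontal axis) of each of the 8 genes in the 4 comparisons, with whiskers of 1 SE; filled points have an unadjusted edgeR p under 0.05, and genes a table does not list are marked. The 5 Gbp genes lie between 0.68 and 1.43 in WT, whereas in TET2 KO the listed genes are Gbp3, Gbp6 and the 3 IRGs, from 0.32 to 1.84.

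In TET2 KO mice Gbp3, Gbp6 and the IRGs were listed as higher on HFD. Gbp3 and Gbp6 were listed in WT as well, and the IRGs have no values in WT HFD. The lists alone therefore do not show a difference between the genotypes. Of the 8 genes 5 were listed, 4 were called higher (Gbp6, Irgm1, Igtp and Iigp1), and none passed the adjusted threshold, with adjusted p-values from 0.706 to 0.838. Of the 1628 genes listed, 77% were called, 29.3% as higher and 47.7% as lower, 72.6% did not overlap, and 0.0614%, a single gene, passed the adjusted threshold. With TMM scaling the split of the calls turned round, from 38.0% to 64.2% higher, and the median of all listed genes moved from -0.51 to -0.26. DESeq2 gave 70 such genes, none of them a member. The median was 0.96 over the 5 members and -0.51 over all listed genes, and 7.6% of the genes the study adjusted were listed. Gbp2, Gbp4 and Gbp5 were not listed.

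Irgm1, a regulatory IRG, had 9.05, 9.51 and 8.58 FPKM in the TET2 KO chow libraries and 30.2, 15.7 and 11.1 in the TET2 KO HFD libraries. The chow libraries were close together and all lay below the HFD libraries, which covered a wide range. The log2 fold change was 1.07 ± 0.34 (edgeR adjusted p = 0.706), and all 6 fits with 1 library left out kept the call, with values from 0.57 (without TET2 KO HFD replicate 1) to 1.35. In those fits 599 to 1062 of the 1628 listed genes were called. Igtp, the second regulatory IRG, had 23.7, 26.4 and 26.6 FPKM on chow and 53.0, 35.1 and 26.8 on HFD. Its groups were apart only narrowly, since HFD replicate 3 lay just above the highest chow library. The log2 fold change was 0.58 ± 0.25 (edgeR adjusted p = 0.764), and 1 of 6 fits with a library left out kept the call, which was also lost with limma-trend (0.53).

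Iigp1, the effector IRG, had 10.8, 16.0 and 6.12 FPKM on chow and 77.4, 27.7 and 12.4 on HFD. Its groups overlapped, because HFD replicate 3 lay below chow replicate 2, and HFD replicate 1 stood far above the rest. The log2 fold change was 1.84 ± 0.64 (edgeR adjusted p = 0.718). Without TET2 KO HFD replicate 1 it was 0.87 and no longer called, and the call was also lost without chow replicate 1 (1.82) or chow replicate 3 (1.55). Without that HFD library Igtp was 0.27 and not called either, and the number of members called was 2, Gbp6 and Irgm1, in place of 4. Without chow replicate 1 or chow replicate 3 it was 2 as well.

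Gbp6 had 1.35, 1.30 and 0.943 FPKM in TET2 KO chow and 3.27, 2.08 and 1.66 in TET2 KO HFD. The HFD libraries were all above the chow libraries, and the log2 fold change was 0.96 ± 0.29 (edgeR adjusted p = 0.706), called in all 6 fits with 1 library left out. Gbp3 had 9.55, 9.11 and 9.14 FPKM on chow and 12.3, 11.1 and 11.2 on HFD. It was higher in each HFD library by a small and even step of 0.32 ± 0.15 (log2), which was not called (edgeR adjusted p = 0.838) but was with DESeq2 (0.32) and with TMM scaling (0.57).

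Within TET2 KO HFD the 3 mice ran in the same order for the IRGs and Gbp6, with replicate 1 highest and replicate 3 lowest. Gbp3 was also highest in replicate 1 but lowest in replicate 2, whereas Gbp5 was lowest in replicate 1. In replicate 1 the level over the TET2 KO chow mean was 7.05-fold for Iigp1, 3.34-fold for Irgm1, 2.73-fold for Gbp6 and 2.07-fold for Igtp, against 0.753-fold for Gbp5. In replicate 3 the same ratios were 1.13, 1.23, 1.39, 1.05 and 1.07. Pearson's r of log2 levels over the 6 TET2 KO libraries was 0.982 between Irgm1 and Igtp, 0.956 between Irgm1 and Iigp1 and 0.960 between Gbp6 and Irgm1, but -0.449 between Gbp5 and Irgm1. These coefficients describe 6 libraries of 2 diets, and TET2 KO HFD replicate 1 lies far from the other libraries for the IRGs.

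**Figure D4:**
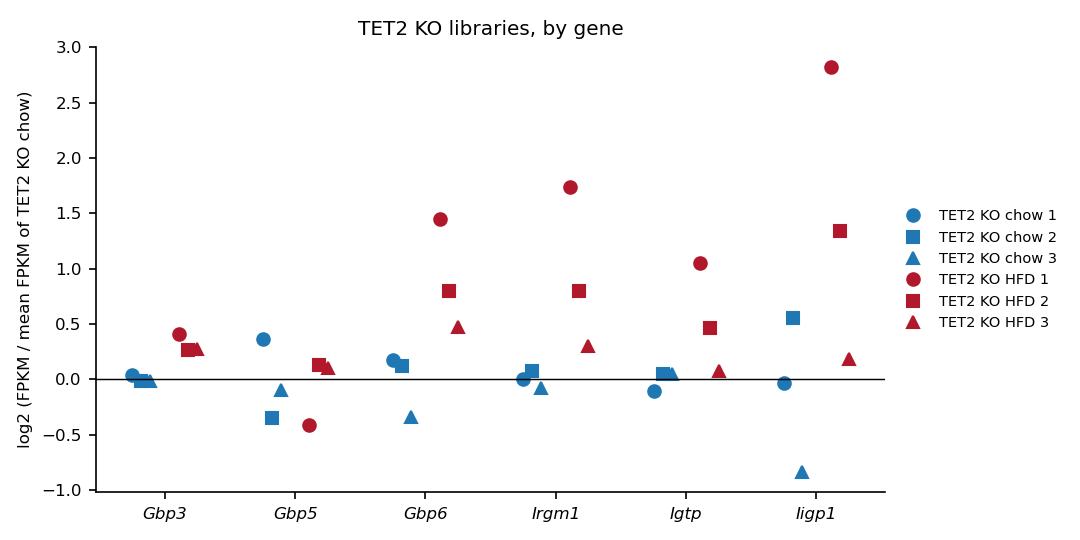
log2 ratio of each TET2 KO library's FPKM to the mean of the TET2 KO chow libraries, for the 6 genes with values in both diets (blue, chow; red, HFD; shapes are replicates). TET2 KO HFD replicate 1 is highest for Gbp3, Gbp6, Irgm1, Igtp and Iigp1 and lowest for Gbp5.

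Marker genes differed in the same libraries. Of 12 endothelial markers only Emcn, a sialomucin of capillary and venous endothelium, was listed for HFD against chow in TET2 KO. It had 2.67, 2.60 and 1.96 FPKM on chow and 7.25, 3.45 and 3.55 on HFD, so that replicate 1 was again highest. The sum of the 9 endothelial markers listed against WT HFD, of which Cldn5 was the most abundant, was 707 FPKM in TET2 KO HFD replicate 1 and 387 and 442 in the other two. Of 11 monocyte and macrophage markers, 5 were listed and lower on HFD (3 called), and their sum, mostly Lyz2, was 2013 FPKM in replicate 1 against 3400 and 3129 in the other HFD libraries and 3977 to 5553 on chow. Of 12 T cell markers, 4 (Il7r, Trac, Cd8b1 and Cd8a) were called lower, with sums of 60.5 to 91.6 FPKM against 108 to 130.0 on chow. Of 10 fibroblast and smooth muscle markers, 4 (Dcn, Col3a1, Pdgfrb and Pdgfra) were listed, all higher and 2 called, with a median of 1.06, and their sum was 2.49 to 3.29 FPKM on chow and 3.86, 4.29 and 8.27 on HFD, so that replicate 1 was the lowest of the HFD libraries. Gzma, the single NK cell marker listed, was higher by 1.13 (not called), with 12.2, 53.1 and 54.5 FPKM on HFD, and the epithelial marker Epcam was called lower at -0.60. No marker listed was at 0 in any library. The part of these cell markers in the result was not tested, and in bulk RNA a change in the number of cells of a type cannot be told apart from a change in RNA per cell.

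The WT comparison of diets ran beside larger shifts in markers. Of 12 endothelial markers, 11 were higher on HFD with a median log2 fold change of 1.40, all 11 called and 1 (Emcn) with an adjusted p under 0.05. Their sum was 302, 262 and 704 FPKM in WT chow and 1358, 1106 and 784 in WT HFD, so WT chow replicate 3 was close to WT HFD replicate 3. All 11 NK cell markers were higher too, 10 of them called and 7 with an edgeR adjusted p under 0.05, with sums of 38.6 to 68.1 FPKM on chow and 111 to 188 on HFD, Gzma being the most abundant. Monocyte and macrophage markers were mixed, with Csf1r, Cx3cr1, Ccr2 and Ly6c2 higher and Siglecf, Mertk and Marco lower, all 7 called and 4 (Csf1r, Cx3cr1, Ccr2 and Marco) past the adjusted threshold, and 3 of 12 T cell markers (Lck, Thy1 and Cd8a) were higher. Of 12 lung epithelial markers, 6 were listed, and the alveolar type I cell genes Ager (1.34) and Hopx (1.18) rose with an edgeR adjusted p under 0.05, whereas Epcam (-0.70) and Scgb3a2 (-0.64) were called lower. Of the fibroblast and smooth muscle markers, Pdgfrb rose by 0.87 and Tagln fell by 1.12 on the log2 scale, both with an edgeR adjusted p under 0.05. The neutrophil marker Retnlg was called lower at -1.47, with 489, 361 and 269 FPKM on chow and 53.3, 121 and 229 on HFD. The part of the cell markers in the rise of the Gbp genes was not tested.

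On chow, 4 of the 8 genes were listed for the effect of TET2 KO, with Gbp2, Gbp4 and Gbp5 higher than in WT and Iigp1 lower. All 4 were called at an unadjusted p under 0.05 and none at the adjusted threshold, where adjusted p-values were 0.792 to 0.898. Of the 1298 genes listed, 76.6% were called (30.6% higher and 46% lower), 74.7% did not overlap, and none passed the adjusted threshold with edgeR, against 12 with DESeq2. The median was 0.52 over the members and -0.37 over all listed genes, and 5.88% of the genes the study adjusted were listed. The comparison shares its WT chow libraries with the WT comparison of diets and its TET2 KO chow libraries with the TET2 KO one, so the values of these comparisons are not independent.

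Gbp5 had 1.17, 1.05 and 1.34 FPKM in WT chow and 2.65, 1.62 and 1.93 in TET2 KO chow. All KO libraries were above all WT libraries, with a log2 fold change of 0.80 ± 0.23 (edgeR adjusted p = 0.792), and the call held in all 6 fits with 1 library left out. In those fits 483 to 806 of the 1298 listed genes were called. Gbp2 had 23.1, 16.4 and 16.0 FPKM in TET2 KO chow against 11.6, 11.6 and 15.8 in WT chow. The lowest KO library barely exceeded WT replicate 3, and the log2 fold change of 0.51 ± 0.21 (edgeR adjusted p = 0.898) was called in 3 of 6 such fits. Gbp4 had 10.7, 6.97 and 8.74 FPKM against 7.11, 5.55 and 5.71. KO replicate 2 fell inside the WT range, and the log2 fold change was 0.52 ± 0.20 (edgeR adjusted p = 0.889), called in 2 of 6.

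Iigp1 went the other way from the Gbp genes, with 17.1, 17.1 and 28.5 FPKM in WT chow and 10.8, 16.0 and 6.12 in TET2 KO chow. The groups were apart by a narrow margin, between KO replicate 2 and the lower WT libraries. The log2 fold change was -0.93 ± 0.36 (edgeR adjusted p = 0.889), called in 3 of 6 fits and ranging from -1.30 to -0.64. The call was lost without WT chow replicate 3 (-0.65), KO replicate 3 (-0.64) or KO replicate 1 (-0.92). For Gbp2 it was lost without WT replicate 1 (0.44), WT replicate 2 (0.43) or KO replicate 1 (0.31), and for Gbp4 without WT replicate 2 (0.45), WT replicate 3 (0.47), KO replicate 1 (0.35) or KO replicate 3 (0.53). Without KO replicate 1, 1 of the 4 genes (Gbp5) was still called, and without WT replicate 2, WT replicate 3 or KO replicate 3, 2 were.

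WT chow replicate 3, the highest of the WT chow libraries for Iigp1, Gbp2 and Gbp5, was also the one with the endothelial marker sum of 704 FPKM. Gbp3, Gbp4 and Gbp6 were instead highest in WT chow replicate 1, where that sum was 302 FPKM. No endothelial marker was in the table of the genotypes on chow. Of 12 T cell markers, 8 were higher in TET2 KO (7 called), with Il7r the most abundant and sums of 102 to 167 FPKM in WT and 176 to 232 in TET2 KO. Of 10 fibroblast and smooth muscle markers, 4, Col1a1, Col1a2, Col3a1 and Dcn, were lower, with sums of 8.12, 9.18 and 4.33 FPKM in WT against 3.05, 3.18 and 3.86. Of 12 lung epithelial markers, 3 were lower as well, with Scgb1a1 the most abundant and sums of 4299 to 5643 FPKM against 2363 to 3104. Cx3cr1 and Ccr2 of the 11 monocyte markers and Nkg7 and Prf1 of the 11 NK cell markers were higher, and none of the B cell (7) or neutrophil (7) markers was listed. The part of these markers in the 4 results was not tested.

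On HFD, Gbp5 was the single member listed for TET2 KO against WT, and it was lower. Its FPKM was 1.56, 2.27 and 2.21 in TET2 KO HFD and 2.85, 3.93 and 2.75 in WT HFD. The groups did not overlap, and the log2 fold change was -0.66 ± 0.21 (edgeR adjusted p = 0.241). Without WT HFD replicate 2, its highest library, the log2 fold change was -0.47 and not called, and the other 5 fits with a library left out kept the call. Of the 3939 genes listed here, 82.3% were called (43.1% higher and 39.1% lower), 74.7% did not overlap, none passed the adjusted threshold with edgeR and 577 did with DESeq2, and 19.2% of the genes the study adjusted were listed. The median of all listed genes was 0.33, and -0.28 over those with a mean normalized count of at least 10, so its sign is not stable. Of 12 endothelial markers, 9 were lower as well, 7 of them called, with a median of -0.96 and sums of 740 to 1271 FPKM in WT HFD against 387 to 707 in TET2 KO HFD. Ccr2 of the monocyte markers was lower, 2 of 11 NK cell markers (Ncr1 at -1.14 and Klrk1 at -0.65) and 2 of 12 lung epithelial markers were listed and lower, and no T cell or fibroblast marker was listed. Their part in the lower level of Gbp5 was not tested.

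Whether diet acted differently in the genotypes could be tested for Gbp3, Gbp5 and Gbp6, which had counts in all 12 libraries. The test was the genotype by diet term of 1 edgeR fit over the 975 genes with counts in all 12 libraries. These genes are in the fit because several contrasts had selected them, and 56.4% of them were called for this term (27.8% higher, 28.6% lower, and 55.4% after adjustment), so that a call for a member is not particular to it. For Gbp5 the HFD effect was 1.42 ± 0.24 (log2) in WT and -0.04 ± 0.24 (95% interval -0.56 to 0.48) in TET2 KO. The difference was -1.46 ± 0.34 (95% interval -2.21 to -0.72, edgeR adjusted p = 0.0141). For Gbp5 it equals the genotype contrast on HFD minus that on chow, and both had listed the gene. Adjustment here was over the 975 selected genes only. The pairwise comparisons were adjusted over 18463 to 23768 genes, so their adjusted p-values cannot be compared with those of this term. In FPKM, Gbp5 was 1.18 ± 0.148 in WT chow, 3.18 ± 0.652 in WT HFD, 2.07 ± 0.530 in TET2 KO chow and 2.01 ± 0.394 in TET2 KO HFD (n = 3 each). Both TET2 KO means lay between the WT means.

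For Gbp3 the difference of the diet effects was -0.46 ± 0.22 (95% interval -0.94 to 0.03, edgeR adjusted p = 0.112), with means of 8.22, 14.1, 9.27 and 11.5 FPKM in WT chow, WT HFD, TET2 KO chow and TET2 KO HFD. For Gbp6 it was 0.29 ± 0.36 (95% interval -0.48 to 1.07, edgeR adjusted p = 0.640), with means of 1.24, 1.98, 1.20 and 2.34 FPKM. Neither passed the threshold in this fit, and the interval for Gbp6 leaves room for a difference in either direction. Gbp3 was called for this term with DESeq2 (-0.46) and with TMM scaling (-0.80), and with TMM the value of Gbp6 turned to -0.09, not called, while the median of all genes in the fit moved from 0.05 to -0.30. The same fit gave the genotype contrasts for which these genes were not listed. Gbp3 differed between TET2 KO and WT by 0.17 (95% interval -0.17 to 0.52) on chow and by -0.28 (-0.63 to 0.06) on HFD, and Gbp6 by -0.06 (-0.61 to 0.49) and 0.24 (-0.31 to 0.78). For Gbp2 and Gbp4 on HFD and for the IRGs in WT the term was not analysed here.

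Other interferon-induced GTPase genes, not all of them GBPs or IRGs, were higher on HFD as well. Of 20 other interferon-induced GTPases, 11 were listed for HFD against chow in WT, all 11 higher and called, with a median log2 fold change of 0.86. Of all genes listed in that comparison, 91.6% were called, 42.4% as higher, and 18.7% passed the adjusted threshold. Ifi47 (1.02), Irgm2 (0.92), Tgtp2 (0.86) and Gbp7 (0.77) rose with an edgeR adjusted p under 0.05, and Gbp9, the most abundant, was higher by 0.54 (adjusted p = 0.104). Irgm2, the third GMS-type IRG, had 7.64, 6.27 and 8.14 FPKM on chow and 14.2, 14.0 and 13.2 on HFD, a narrow range in each group and a clear gap between them. In TET2 KO, 7 of the 20 were listed, all higher and 6 called, with a median of 0.75. None of them passed the adjusted threshold. Of all genes listed in that comparison, 77% were called, 29.3% as higher. The 4 most abundant were Gbp9 (0.45), 9930111J21Rik2 (0.62), Tgtp2 (0.68) and Gm12250 (0.75), and the largest value was that of Gm12185 (1.90).

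Gm12185 resembled Iigp1 from library to library. It had 1.28, 1.38 and 2.10 FPKM in WT chow, 0.902, 1.21 and 0.742 in TET2 KO chow and 7.98, 1.86 and 0.822 in TET2 KO HFD. WT chow replicate 3 and TET2 KO HFD replicate 1 were the highest of their groups for both genes. Its log2 fold change between TET2 KO and WT on chow was -0.74 (edgeR adjusted p = 0.859). Of the 20 genes, 3 others were listed there and higher, namely Ifi47 (0.48), Gbp8 (0.39) and Gvin1 (0.33), with 2 of them called. On HFD, none of the 20 was listed between the genotypes.

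Upstream of the GTPases, 10 of 22 genes for interferons, their receptors and their signalling were listed for HFD against chow in WT, and all 10 were higher and called. In that comparison 30.2% of the genes the study adjusted were listed. Of all listed genes 91.6% were called, 42.4% as higher, and 18.7% passed the adjusted threshold. Usp18 (1.62), an interferon-induced brake on the type I receptor, Irf7 (0.72) and Irf2 (0.58), both interferon regulatory factors, rose with an edgeR adjusted p under 0.05. Ifng itself had 1.43, 0.988 and 1.29 FPKM on chow and 1.77, 2.50 and 3.11 on HFD, a log2 fold change of 0.99 with an edgeR adjusted p of 0.0764. Ifngr1, the ligand-binding chain of its receptor, was higher by 0.53 (adjusted p = 0.0584), Socs3, an inhibitor of cytokine receptors, by 0.66 (adjusted p = 0.0618), and the phosphatase gene Ptpn6 by 0.54 (adjusted p = 0.0547).

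In the other comparisons fewer signalling genes were listed, but so were fewer genes of any kind. Of the genes the study adjusted, 30.2% were listed for HFD against chow in WT. The share was 19.2% for TET2 KO against WT on HFD and 5.88% on chow. For HFD against chow in TET2 KO it was 7.6%. Between the genotypes on HFD, 5 of the 22 signalling genes were listed. Jak2 (0.40) and Ifngr2 (0.34) were higher, and Usp18 (-0.60), Socs3 (-0.37) and Irf2 (-0.34) were lower. In TET2 KO, Irf7 (0.63), Ifnar1 (0.37), Ifngr2 (0.34) and Stat2 (0.31) were listed as higher on HFD, and Irf7 was the single one called. None of these genes passed the adjusted threshold outside the WT comparison of diets.

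Other IFNγ target genes were also higher on HFD in WT. Of 26 such genes, 15 were listed, all higher and called, and 8 rose with an edgeR adjusted p under 0.05. Of all genes listed in that comparison, 91.6% were called, 42.4% as higher, and 18.7% passed the adjusted threshold. Among the most abundant, B2m, the light chain of MHC class I, rose by 0.70 (log2) and Tapbp, which loads peptides onto it, by 0.65, while H2-D1 (0.57) and H2-K1 (0.38), its heavy chains, were higher without passing the adjusted threshold. In TET2 KO, 5 were listed as higher on HFD (H2-K1, H2-Ab1, Serping1, Cxcl10 and Nos2), with a median of 0.68 and 4 called. Of all genes listed there, 77% were called. For TET2 KO against WT, 4 were listed as lower on HFD (Wars at -0.54, Psmb9 at -0.46, Psmb10 at -0.35 and Tapbp at -0.34). Of these, 2 were called, where 82.3% of all listed genes were. On chow Psmb10 and Tapbp were listed at 0.30 each, not called, and Serping1, a complement inhibitor, was called at -0.96.

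Of 22 genes that work with GBPs and IRGs in autophagy-like targeting and at inflammasomes, 8 were listed for HFD against chow in WT, 6 higher and 2 lower. Gsdmd, whose cleaved product forms the pores of pyroptosis, rose by 0.63 (edgeR adjusted p = 0.0357). Map1lc3a was higher by 0.30, whereas Sqstm1, an autophagy receptor, and Il18, a cytokine that inflammasomes release, were lower by -0.40 and -0.93 without passing the adjusted threshold. In TET2 KO, Il18 (-0.86) and Atg5 (-0.29) were listed as lower on HFD. Between the genotypes, Gsdmd (0.26) was the single one listed on chow, and none of the 22 was on HFD.

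**Figure D5:**
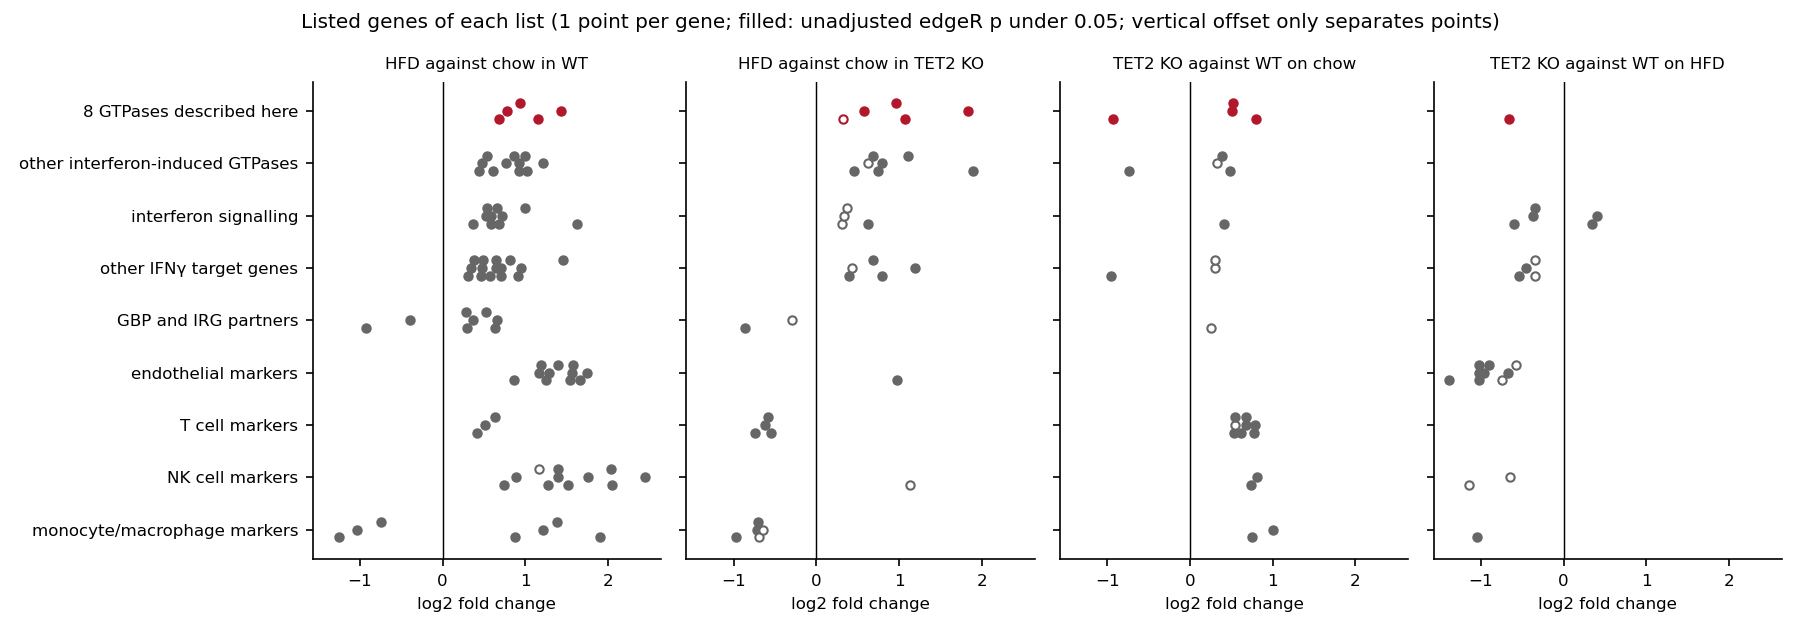
log2 fold change (horizontal axis) of every listed gene of each list in the 4 comparisons, 1 point per gene, filled where the unadjusted edgeR p is under 0.05; red points are the 8 GTPases. Points of the interferon lists lie to the right of 0 for HFD against chow in WT, and they overlap with those of the endothelial and NK cell markers, whose medians (1.40 each) are higher.

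The genes whose pattern was most like that of the 5 Gbp genes were found over the 9 libraries of WT chow, TET2 KO chow and WT HFD, in which all 5 have values. The measure was Pearson's r with the mean of the members' standardised log2(FPKM + 0.1), among 951 genes with values there and a mean of at least 1 FPKM. The first 5 were Vegfc (0.976), Lipe (0.975), Nod1 (0.974), Gsdmd (0.971) and Psmb10 (0.971). Vegfc, a lymphatic growth factor, had 1.96, 2.27 and 2.76 FPKM in WT chow, 6.39, 3.90 and 3.30 in TET2 KO chow and 12.7, 11.7 and 8.81 in WT HFD. Its groups followed the same order as Gbp4 and Gbp5, with TET2 KO chow between the WT groups. Of the 951 genes, 9.36% had an r of at least 0.9, and the members themselves had between 0.846 (Gbp6) and 0.961 (Gbp4). The genes compared were all selected by the listing of these same libraries, so the coefficients only describe the libraries.

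Tet2 was listed for HFD against chow in WT alone, with 5.02 ± 0.253 FPKM on chow and 6.37 ± 0.319 on HFD (log2 fold change 0.35 ± 0.10, edgeR adjusted p = 0.0788). The knockout itself could therefore not be read from the Tet2 counts, and the genotype labels were not checked against them.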

How the data were processed

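RNA of CD31+ lung cells from 12 mice (4 groups of 3) was sequenced as poly(A)-selected, paired-end libraries. According to the study's methods and the submitters' processing notes, the authors used HISAT2 for alignment to mm10, featureCounts for gene counts and DESeq2 for testing; versions, annotation release and strand setting are not given in the sources used here. Each of the 4 deposited tables belongs to 1 pairwise comparison. The deposited columns used here are raw read counts, normalized signal (the count divided by a DESeq2 size factor), FPKM values and gene lengths. The tables also hold the authors' log2 fold changes, p-values and adjusted p-values; these served only to find that each table keeps genes with an unadjusted p under 0.05 and how many genes were adjusted (18463 for TET2 KO against WT on chow, 23768 for HFD against chow in WT, 18703 for TET2 KO against WT on HFD and 19511 for HFD against chow in TET2 KO), and none of their values is printed.

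Each comparison was fitted with edgeR 4.0.16 (R 4.3.3; glmQLFit, glmQLFTest) on the counts of all genes its table lists, using only the 6 libraries compared, no covariate and the authors' size factors as library sizes; Benjamini-Hochberg values were taken over the number of genes adjusted. Fold changes are edgeR's log2 values, and SEs are the fold change divided by the root of its F. The interaction used library totals recovered from count, length and FPKM, and its Benjamini-Hochberg values were taken over the 975 genes fitted. Alternatives were DESeq2 1.42.0, limma-trend (limma 3.58.1, log2 of the normalized value + 1), TMM, a minimum mean normalized count of 10, library totals, the replicate number as a block, the adjusted threshold and leaving out each library. The fits were tested on simulated data. Promoters came from RefSeq and exons and transcripts from GENCODE M21. The members, lists and tests were chosen with earlier results of these data known. All 8 members are named, up to 4 listed genes with the highest mean FPKM (all where 5 or fewer are listed) of each other list, and the 5 genes with the most similar pattern; further genes were named after their values were seen. Results for some genes of the signalling list are not reported here.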

Additional observations from a re-analysis of the deposited data

Results flagged for a closer look

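The effect of HFD on Gbp5 differed between the genotypes by the test of the difference itself. The HFD effect in TET2 KO minus that in WT was -1.46 on the log2 scale (95% interval -2.21 to -0.72, edgeR adjusted p = 0.0141 over 975 genes), with every WT HFD library above every WT chow library (3 of 3) and the TET2 KO HFD libraries inside or just below the range of the TET2 KO chow libraries. The difference lay between -1.61 and -1.24 when each of the 12 libraries was left out in turn, and it was called in all 12 of these fits. Of the 975 genes, 525 to 553 were called in those fits as well. In the fit of all 12 libraries, 55.4% of the genes passed the adjusted threshold. The endothelial marker sums were higher in every WT HFD library than in any WT chow or TET2 KO HFD library. Their part was not tested.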

How the results depend on the processing

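Each member kept the direction of its log2 fold change in every pairwise comparison that lists it, under all alternatives run. This is largely built in, because listing had selected the members by the study's own test of the same libraries. Of 105 values under other tests, scalings, the filter and the block, 96 kept direction and call, 4 lost the call, 4 gained it and 1 reversed; with 1 library left out, of 126 values 104 kept both, 19 lost the call, 2 gained it and 1 reversed. The reversals were both the genotype by diet difference of Gbp6, not called in any fit, at -0.09 with TMM and -0.03 without TET2 KO HFD replicate 1 (-0.03 to 0.49 with a library left out). For TET2 KO against WT on chow, 4 members were called, against 2 with the replicate block, 0 at the adjusted threshold and 1 to 4 with a library left out. For TET2 KO against WT on HFD, 1 was called, against 0 at the adjusted threshold and 0 to 1 with a library left out. For HFD against chow in TET2 KO, 4 were called, against 5 with DESeq2, 5 with TMM, 3 with limma-trend, 3 with the replicate block, 0 at the adjusted threshold and 2 to 4 with a library left out; Gbp3 gained its call with DESeq2 and with TMM (0.57 in place of 0.32), and Igtp lost its call with limma-trend and with the block. For the difference of the diet effects, 1 was called, against 2 with DESeq2, 2 with TMM and 1 to 2 with a library left out, the further gene being Gbp3. The cause of these changes was not tested. The deviations of same-numbered libraries correlated between -0.100 and 0.177, so the numbers were not taken to pair the mice; with the replicate block the members passing the adjusted threshold for HFD against chow in WT went from 4 to 0 and all genes from 1368 to 0, and with a library left out the members were 0 to 4 and all genes 0 to 1594. DESeq2 put 4586 genes past that threshold and limma-trend 2122, each with 5 members among them. TMM on the fitted genes moved the share of called genes that were higher from 39.9% to 49.6% for TET2 KO against WT on chow, and from 38.0% to 64.2% for HFD against chow in TET2 KO, where the median of listed genes moved from -0.51 to -0.26; the median of the interaction moved from 0.05 to -0.30. Each group holds 3 mice, counting error was not separated from the spread between mice, and unlisted genes have no values.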
